A study of Saccharomyces cerevisiae with 4 samples.

Results

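The aminoacyl-tRNA synthetase genes of budding yeast (Saccharomyces cerevisiae) were followed in newly made RNA with and without rapamycin. Members were taken by systematic name from a list of 35 genes, the first 22 encoding cytosolic or dually targeted enzymes and their cofactor Arc1, the last 13 encoding mitochondrial enzymes. Of these, 34 had a row among the 6030 annotated transcripts of the files, 21 in the cytosolic or dual set and 13 in the mitochondrial set, and 1 listed gene was not analysed here. The rule that picks the rows uses gene names alone, but the members were chosen with earlier results of these data known.

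All libraries came from strain Y40343, which carries Ssl2-FRB::kanMX6, so that the tag and its marker are shared by both groups. Ssl2 is the DNA translocase of TFIIH, the general factor that helps RNA polymerase II open promoters, and in the anchor-away method rapamycin ties the FRB-tagged protein to an anchor that carries it out of the nucleus. The 2 libraries labelled "no rapa" were compared with the 2 labelled "with rapa". The labels give no dose or time of rapamycin, no untagged control strain and nothing on whether replicates came from different cultures. The p-values below rest on library-to-library variation alone, and that variation may be technical. Cells grown in YPD at 30 C received 5 mM 4-thiouracil for 6 min, and the labelled RNA was purified and sequenced. An effect of rapamycin itself and an effect of moving Ssl2 cannot be told apart in this design.

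Each aminoacyl-tRNA synthetase joins an amino acid to its matching tRNA, the step at which the genetic code is read into chemistry. The enzymes fall into class I and class II by the fold of their catalytic domain. Yeast mitochondria translate a few mRNAs of their own with imported synthetases, most of them encoded by separate nuclear genes. Some genes, such as ALA1, HTS1 and VAS1, each encode both a cytosolic and a mitochondrial form. In growing cells the cytosolic synthetases are made at high levels along with the rest of the translation machinery.

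Feature counts per library ran from 11441998 to 32435994, lower with rapamycin, and counts per synthetase gene from 207 to 55957. Log2 CPM (counts scaled to library size) correlated at r = 0.994 within the group without rapamycin. The value was 0.982 within the group with rapamycin and 0.923 to 0.934 across groups, over 5707 features, which are not independent. As a check on cell type, the 3 MATalpha genes measured (STE3, SAG1 and MF(ALPHA)1) averaged 228 to 358 CPM without rapamycin and the 6 MATa genes 0.0506 to 16.7 CPM. With rapamycin STE3 was lower and 4 MATa genes (ASG7, AGA2, BAR1 and MFA1) were higher, the other 4 genes of both lists being uncalled. Those 4 MATa genes stayed low, with means of 1.65 CPM (AGA2) to 10.1 CPM (BAR1) with rapamycin. The libraries with rapamycin differed widely in AGA2 (0.81 and 2.48 CPM), BAR1 (5.06 and 15.0) and MFA1 (1.09 and 3.97), less so in ASG7 (6.60 and 6.38). The part of these genes in the results below was not tested. Levels below are CPM scaled by TMM (trimmed mean of M-values), so that each change is relative to the bulk of features, and a rise or fall shared by most transcripts would not show. In bulk RNA, fewer cells making a transcript and less of it per cell cannot be told apart.

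The cytosolic and mitochondrial synthetase genes are described apart. Of 21 cytosolic or dual genes, 16 rose with rapamycin, 0 fell and 5 were uncalled, and the median was 0.79 on the log2 scale (1.73-fold). Of 13 mitochondrial genes, 0 rose, 4 fell and 9 were uncalled, with a median log2 fold change of -0.44. That median ranged from -0.51 to -0.22 with 1 library left out and was -0.17 over the 7 mitochondrial genes that overlap no other feature. The replicate SD of the group difference in median log2 level was 0.29 for each set. Calls come from the quasi-likelihood test of edgeR at a threshold of 0.05, with p-values adjusted over all 5707 tested features by Benjamini and Hochberg. In that test 19.3% of all features were called higher and 26.7% lower, and the median log2 fold change of all features was -0.03. Among open reading frames 17.5% were called higher and 30.2% lower, and their median was -0.14. The 4 of 13 mitochondrial genes called lower (30.8%) are thus a share near the background, while the 16 of 21 cytosolic genes called higher (76.2%) are a share above it. All 34 genes passed the filter on low counts, and all 21 cytosolic estimates lay above 0 against 2 of 13 mitochondrial ones. The call for most cytosolic genes depended on having both libraries of a group: 9 were called without no rapa replicate 1, 3 without no rapa replicate 2, 13 without with rapa replicate 1 and 18 without with rapa replicate 2, while their median stayed between 0.62 and 0.98.

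Summed over the 21 cytosolic or dual genes, the level was 16369 and 13028 CPM in the libraries without rapamycin and 27983 and 24404 CPM in those with it. The 13 mitochondrial genes summed to 997 and 915 CPM without rapamycin and to 726 and 598 CPM with it. The groups did not overlap in either sum, and the sums moved in opposite directions. A sum weighs genes by their level and need not describe each of them. In the mitochondrial sum, NAM2 fell from a mean of 145 to 45.3 CPM and MSR1 from 104 to 52.8 CPM. Of the 13 genes 9 were uncalled, and 2 had estimates above 0. Gene by gene, both libraries with rapamycin lay above both without it for 19 of 21 cytosolic genes and 1 of 13 mitochondrial genes, where 34.1% of all features did so. Both lay below for 0 cytosolic and 10 mitochondrial genes, against 40.1% of all features. Replicates were not interchangeable within this family: no rapa replicate 1 was above replicate 2 for 20 of the 21 cytosolic genes and with rapa replicate 1 above replicate 2 for 16, and the part of these gaps in the results was not tested beyond leaving each library out.

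**Figure D1:**
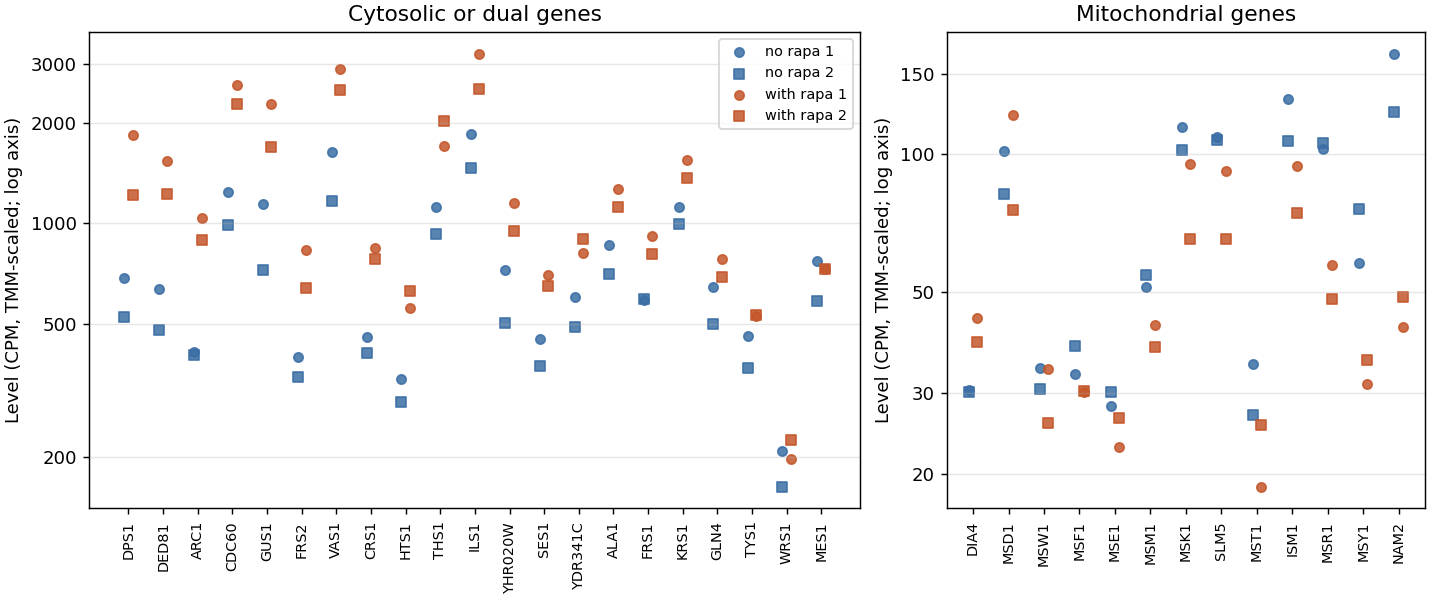
Level of each synthetase gene in each of the 4 libraries (TMM-scaled CPM, log axes that differ between panels), with genes ordered by fold change within each panel. In 19 of 21 cytosolic or dual genes both orange points (with rapamycin) lie above both blue ones, and in 10 of 13 mitochondrial genes both lie below.

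Among the cytosolic genes, DPS1, for the aspartate enzyme, had the highest fold change in the fit of all 4 libraries, by less than its SE. Without with rapa replicate 1 it stood at 0.98, below DED81 and ARC1 (both 1.10) and CDC60 (0.996), and without no rapa replicate 2 ARC1 was highest (1.21). DPS1 (YLL018C, chromosome XII, 109766 to 111585 in R64, minus strand) measured 688 and 526 CPM without rapamycin and 1836 and 1219.7 CPM with it. The groups did not overlap, though the libraries with rapamycin differed from each other by more than those without it. The log2 fold change was 1.33 ± 0.27 (SE; adjusted p = 0.00169, edgeR quasi-likelihood). DED81, which encodes the asparagine enzyme (YHR019C, chromosome VIII, 141791 to 143600, minus strand), measured 638 and 481 CPM against 1533 and 1225 CPM. That is a rise of 1.30 ± 0.25 on the log2 scale (adjusted p = 0.00109 by edgeR). DPS1, DED81 and ARC1 were the 3 cytosolic genes that stayed called whichever library was left out.

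Of the Arc1 complex, ARC1 and GUS1 were called higher and MES1 was uncalled. Arc1 (gene YGL105W) is a tRNA-binding cofactor that holds the methionine enzyme Mes1 and the glutamate enzyme Gus1 in one assembly in the cytosol. ARC1 measured 412 and 403 CPM without rapamycin and 1041 and 891 CPM with it, and rose by a log2 fold change of 1.24 ± 0.21 (adjusted p = 0.000487, edgeR). GUS1 measured 1141 and 724 CPM without rapamycin and 2275 and 1697 CPM with it, a rise of 1.09 ± 0.29 (adjusted p = 0.00909, edgeR), which was not called without no rapa replicate 2 (0.79, adjusted p = 0.174). MES1 measured 774 and 588 CPM against 730.4 and 730.2 CPM, so that both libraries with rapamycin lay between those without it. Its log2 fold change was 0.10 ± 0.22 (adjusted p = 0.729, edgeR), the lowest estimate of the 21, and it was -0.10 without no rapa replicate 2. The differences between these 3 genes were not tested.

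The phenylalanine enzyme is built from alpha subunits encoded by FRS2 and beta subunits encoded by FRS1. FRS2 measured 397 and 346 CPM against 832 and 641 CPM, a log2 fold change of 0.99 ± 0.21 (adjusted p = 0.00247, edgeR). FRS1 measured 588 and 593 CPM against 917 and 808 CPM, a log2 fold change of 0.55 ± 0.21 (adjusted p = 0.0472, edgeR). Both subunit genes rose, FRS1 close to the threshold, and FRS1 lost its call without any of 3 libraries (adjusted p of 0.287 when no rapa replicate 1 was left out, 0.264 for no rapa replicate 2 and 0.0903 for with rapa replicate 1). FRS2 narrowly lost its call when no rapa replicate 2 was left out (0.0517).

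The enzymes for the branched-chain amino acids, which share a large class I editing fold, all rose. CDC60, the leucine gene (YPL160W, chromosome XVI, 246927 to 250433, plus strand), measured 1239 and 992 CPM against 2593 and 2272 CPM, or 1.12 ± 0.27 on the log2 scale (adjusted p = 0.00464, edgeR). VAS1, the dual valine gene, measured 1637 and 1169 CPM against 2896 and 2504 CPM, and ILS1, the isoleucine gene, 1858 and 1463 CPM against 3219 and 2535 CPM. In all 3 the groups did not overlap. Their folds were 2.18 for CDC60, 1.92 for VAS1 and 1.73 for ILS1, with adjusted p of 0.0174 for VAS1 and 0.0402 for ILS1 by edgeR. Without no rapa replicate 2 none of the 3 was called (adjusted p of 0.105, 0.260 and 0.341), and without no rapa replicate 1 VAS1 (0.0508) and ILS1 (0.130) were not. ILS1 was also uncalled when with rapa replicate 1 was left out (0.0552).

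The other genes taken here as dual also rose. HTS1, for histidine, measured 342 and 293 CPM without rapamycin and 558 and 629 CPM with it, a log2 fold change of 0.90 ± 0.19 (adjusted p = 0.00245, edgeR). ALA1, for alanine, measured 861 and 706 CPM against 1266 and 1117 CPM, a log2 fold change of 0.61 ± 0.23 (adjusted p = 0.0474, edgeR). Both groups of both genes were apart. HTS1 was not called without no rapa replicate 2 (adjusted p = 0.067), and of the 4 fits that leave a library out, ALA1 was called in 1, that leaving out with rapa replicate 2. Without a filter on low counts ALA1 (0.057) and FRS1 (0.0592) were uncalled.

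The remaining called cytosolic genes rose by log2 fold changes of 0.65 to 0.91. They were CRS1 for cysteine (0.91 ± 0.20), THS1 for threonine (0.87 ± 0.25), YHR020W for proline (0.77 ± 0.24), SES1 for serine (0.71 ± 0.20) and YDR341C for arginine (0.65 ± 0.21). Each had groups that did not overlap, for example 458 and 411 CPM against 847 and 785 CPM for CRS1. None of these 5 was called without no rapa replicate 2, and THS1, SES1 and YDR341C were also uncalled without no rapa replicate 1.

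Besides MES1, the uncalled cytosolic genes were KRS1 for lysine, GLN4 for glutamine, TYS1 for tyrosine and WRS1 for tryptophan. KRS1, which had the highest level per length of the family without rapamycin, measured 1121 and 999.8 CPM against 1554 and 1369 CPM (log2 fold change 0.46 ± 0.24, adjusted p = 0.130 by edgeR). Its groups were apart, and DESeq2 called it (adjusted p = 0.0166), as did the fits with open reading frames alone (0.0476), with a replicate block (0.0298) and without with rapa replicate 2 (0.0198). GLN4 stood at 0.36 ± 0.21, TYS1 at 0.35 ± 0.20 and WRS1 at 0.19 ± 0.18, the last with groups that overlapped (208 and 163 CPM against 197 and 225 CPM). GLN4 was called without with rapa replicate 2 (0.55, adjusted p = 0.0261 by edgeR) and stood at 0.18 (0.731) without no rapa replicate 2. By catalytic class, 6 of 10 class I and 9 of 10 class II cytosolic genes were called higher, with medians of 0.72 and 0.82. The difference between classes was not tested.

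**Figure D2:**
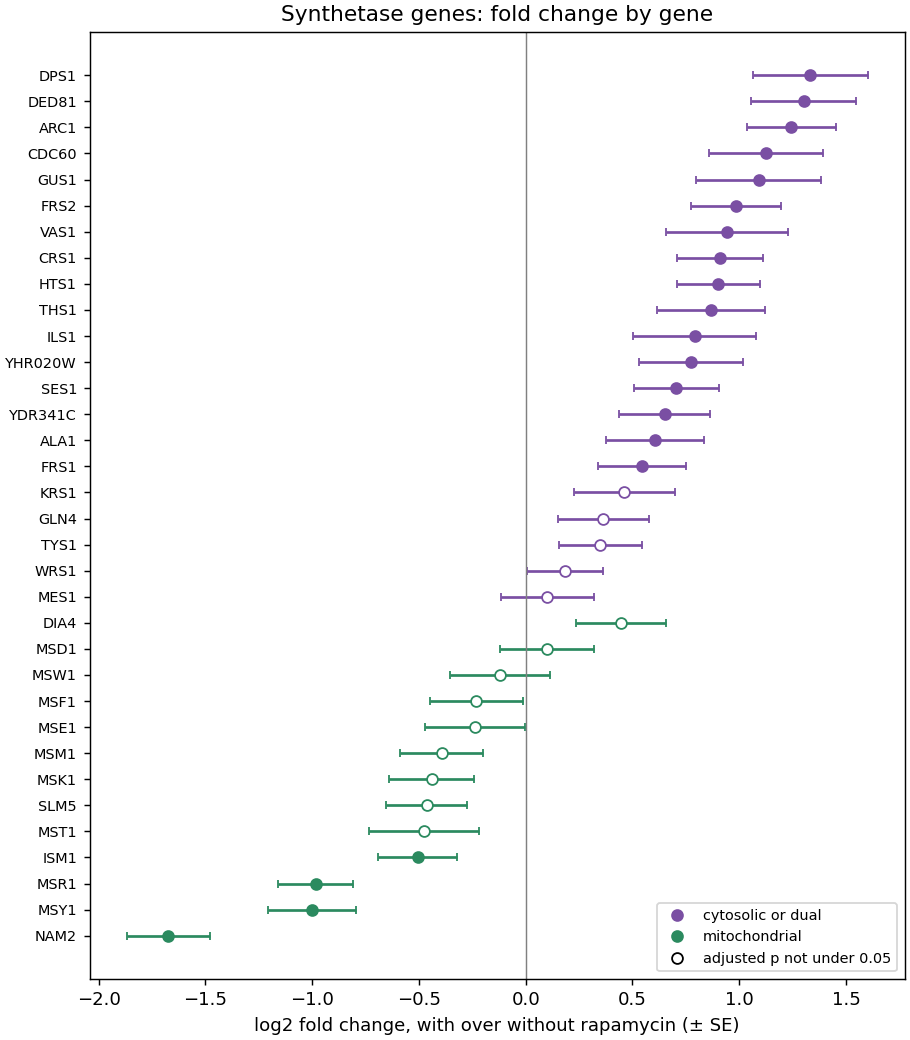
Log2 fold change of each synthetase gene (with over without rapamycin, points) with its SE (bars), purple for cytosolic or dual and green for mitochondrial genes, filled where the adjusted p was under 0.05. Cytosolic estimates run from 0.10 (MES1) to 1.33 (DPS1) and mitochondrial ones from -1.67 (NAM2) to 0.45 (DIA4).

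In the mitochondrial set the leucine gene NAM2 fell furthest. Nam2 charges mitochondrial leucine tRNA and is also needed for splicing of mitochondrial introns. NAM2 (YLR382C, chromosome XII, 881992 to 884833, minus strand) measured 166 and 124 CPM without rapamycin and 41.9 and 48.8 CPM with it. Both libraries with rapamycin lay far below both without it. The log2 fold change was -1.67 ± 0.19 (adjusted p = 3.94e-05, edgeR), a level 3.19-fold lower, and it stayed between -1.89 and -1.46 with any library left out.

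MSY1 (YPL097W), for tyrosine, measured 58.0 and 76.0 CPM without rapamycin and 31.4 and 35.5 CPM with it, a log2 fold change of -1.001 ± 0.208 (adjusted p = 0.00203, edgeR). MSR1 (YHR091C), for arginine, measured 103 and 106 CPM against 57.3 and 48.2 CPM, a log2 fold change of -0.98 ± 0.18 (adjusted p = 0.00077, edgeR). In both genes the groups were well apart, and NAM2, MSY1 and MSR1 were called lower whichever library was left out. ISM1, for isoleucine, measured 132 and 107 CPM against 94.1 and 74.5 CPM. Its log2 fold change of -0.51 ± 0.19 passed narrowly (adjusted p = 0.0411, edgeR). ISM1 was not called by DESeq2 (adjusted p = 0.137), with the scaling of DESeq2 in edgeR (0.0836), without overlapping features (0.0624), with open reading frames alone (0.0953), or without no rapa replicate 1 (0.342) or with rapa replicate 2 (0.285). All 4 called genes encode class I enzymes, of which the mitochondrial set has 7, where 26.7% of all features were called lower. The medians were -0.51 for the class I and -0.34 for the 6 class II genes. The difference between classes was not tested.

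The other 9 mitochondrial genes were uncalled. MST1 for threonine, SLM5 for asparagine, MSK1 for lysine and MSM1 for methionine had log2 fold changes of -0.48 ± 0.26, -0.46 ± 0.19, -0.44 ± 0.20 and -0.39 ± 0.19. All 4 had both libraries with rapamycin below both without it. SLM5 and MSK1 were called lower with a replicate block (adjusted p of 0.0155 and 0.0208, edgeR) and without with rapa replicate 1 (-0.76 and -0.77), as was MSM1 without that library (-0.51), while MST1 was called without with rapa replicate 2 (-0.62). With that last library left out instead, SLM5 stood at -0.14 (adjusted p = 0.564, edgeR), MSK1 at -0.10 (0.701) and MSM1 at -0.22 (0.429). MSE1 for glutamate stood at -0.24 ± 0.23, MSF1 for phenylalanine at -0.23 ± 0.22 and MSW1 for tryptophan at -0.12 ± 0.23.

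The serine gene DIA4 and the aspartate gene MSD1 had positive estimates. DIA4 measured 30.4 and 30.2 CPM without rapamycin and 43.9 and 38.9 CPM with it (0.45 ± 0.21, adjusted p = 0.0993 by edgeR), the only mitochondrial gene with both libraries above. DIA4 was called higher with open reading frames alone (0.57, adjusted p = 0.0416) and when with rapa replicate 2 was left out (0.63, adjusted p = 0.0208). MSD1 measured 102 and 82.1 CPM against 122 and 75.6 CPM, and its groups overlapped. Its log2 fold change of 0.10 ± 0.22 became 0.50 (adjusted p = 0.0212) once with rapa replicate 2 was left out, and -0.31 once with rapa replicate 1 was.

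Levels were also set apart by compartment. Per kb of annotated transcript, cytosolic genes ran from 131 ± 22.6 CPM per kb (SD, n = 2) for WRS1 to 569 ± 46.2 for KRS1 without rapamycin. Mitochondrial genes ran from 16.6 ± 0.820 CPM per kb for MSE1 to 66.0 ± 0.760 for SLM5, so that every cytosolic mean lay above every mitochondrial one. Among the tested features the cytosolic genes stood at the 81.6th to 97.9th percentile of level per kb and the mitochondrial genes at the 25.6th to 62.4th. Within the cytosolic set many neighbours were closer than their SD, such as YDR341C (283 ± 40.9), SES1 (284 ± 36.6) and MES1 (285 ± 55.1). In the mitochondrial set MSR1 (50.6 ± 1.18) and NAM2 (51.0 ± 10.6) were likewise not separable without rapamycin, whereas with it they stood at 25.6 and 15.95 CPM per kb.

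Length and level moved with fold change across the genome. Over 4910 tested open reading frames, Spearman's rho of log2 fold change was -0.37 with transcript length and -0.20 with level per kb without rapamycin. That level also enters the fold change, so the latter rho is not between independent measures. Both are descriptions across genes that share their libraries. Cytosolic synthetase transcripts ran from 1251 to 3507 bases with a median of 1933, and mitochondrial ones from 1304 to 3103 with a median of 1756, against a median of 1434 for tested open reading frames. Within the family, rho with length was 0.01 over 21 cytosolic and -0.47 over 13 mitochondrial genes. With level per kb without rapamycin it was 0.28 and -0.45. The part of length and level in these results was not tested.

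For 13 amino acids the files held both a cytosolic and a mitochondrial gene, which allowed a ratio within each library. The 14 gene pairs, with FRS1 and FRS2 each set against MSF1, had cytosolic to mitochondrial ratios of level per kb from 4.06 to 32.3 without rapamycin and from 5.38 to 79.3 with it. In 13 of 14 pairs both libraries with rapamycin had a higher ratio than both without it, and the median rise was 1.27 on the log2 scale. The ratio changes are a description with no test, since the fits compare each gene between groups. They restate the gene levels above and are not separate evidence. In those levels 19 of 21 cytosolic genes had both libraries with rapamycin above both without it, and 10 of 13 mitochondrial genes had both below. FRS1 and FRS2 share MSF1, and the share for pairs of other genes was not computed.

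The leucine pair opened widest. CDC60 over NAM2 was 6.04 and 6.51 without rapamycin and 50.2 and 37.7 with it, a change of 2.79 on the log2 scale. The asparagine pair DED81 over SLM5 went from 5.29 and 4.06 to 15.1 and 17.0, and the arginine pair YDR341C over MSR1 from 6.27 and 4.94 to 15.2 and 19.9. In the leucine and arginine pairs both genes were called, in opposite directions, as in the isoleucine pair of ILS1 and ISM1, which went from 13.1 and 12.8 to 31.9 and 31.7. The tryptophan pair WRS1 over MSW1 was the exception, at 5.64 and 4.93 against 5.38 and 8.08, with overlapping groups. The serine pair SES1 over DIA4 changed least, from 14.4 and 12.03 to 15.4 and 16.2, its genes having estimates of 0.71 and 0.45.

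**Figure D3:**
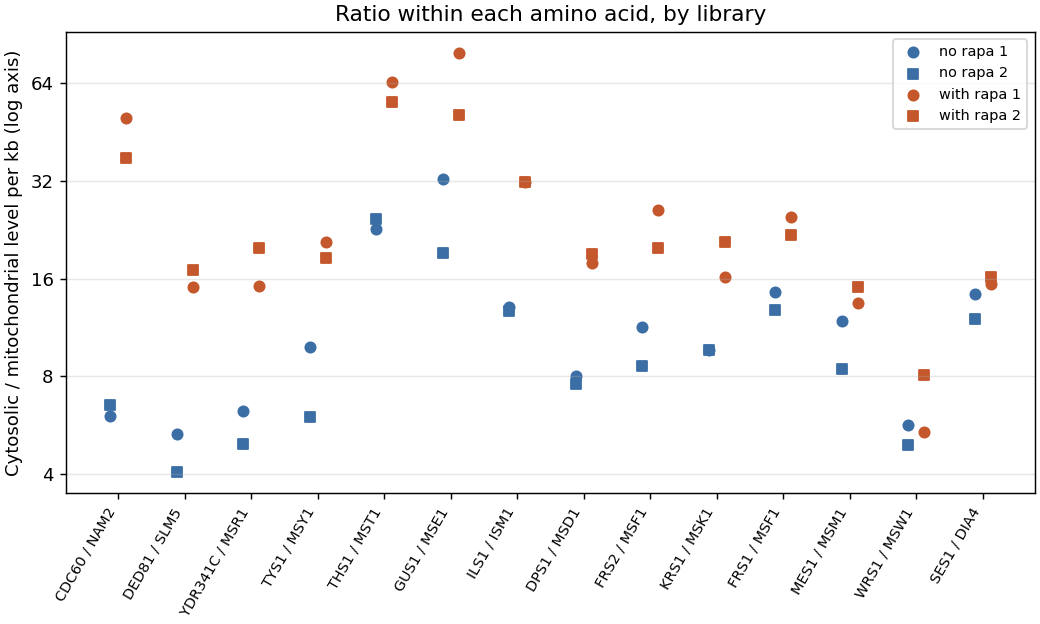
Ratio of cytosolic to mitochondrial level per kb for each of 14 gene pairs of the same amino acid (log axis), in each of the 4 libraries. Ratios with rapamycin (orange) lie above those without it (blue) in 13 pairs, from CDC60 over NAM2 at the left to SES1 over DIA4 at the right, and overlap for WRS1 over MSW1.

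The upstream sequences of the sets also differed in content. The 250 bases before each annotated transcript start were read from the R64 genome for 4928 open reading frames and searched on both strands for 4 motifs. The core of the RRPE element, found at ribosome assembly genes and bound by Stb3, was searched as AAAATTTT. The core site of Gcn4, the activator of amino acid synthesis genes, was searched as TGACTC. The core of the PAC element, bound by Dot6 and Tod6, was searched as GATGAG. The last motif, TATAAA, is that of a TATA box. The RRPE core stood in 13 of 21 cytosolic windows (61.9%) and 0 of 13 mitochondrial windows, against 10.5% of all windows. The Gcn4 core stood in 8 cytosolic windows (38.1%) and 1 mitochondrial window (7.69%), against 7.02% of all. The PAC core was found in 5 cytosolic windows and 1 mitochondrial window (18.7% of all windows). TATAAA was found in 7 cytosolic (33.3%) and 8 mitochondrial windows (61.5%), against 41.7% of all. In no synthetase window did matches of different motifs overlap. A match describes the letters in a window and shows no binding.

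**Figure D4:**
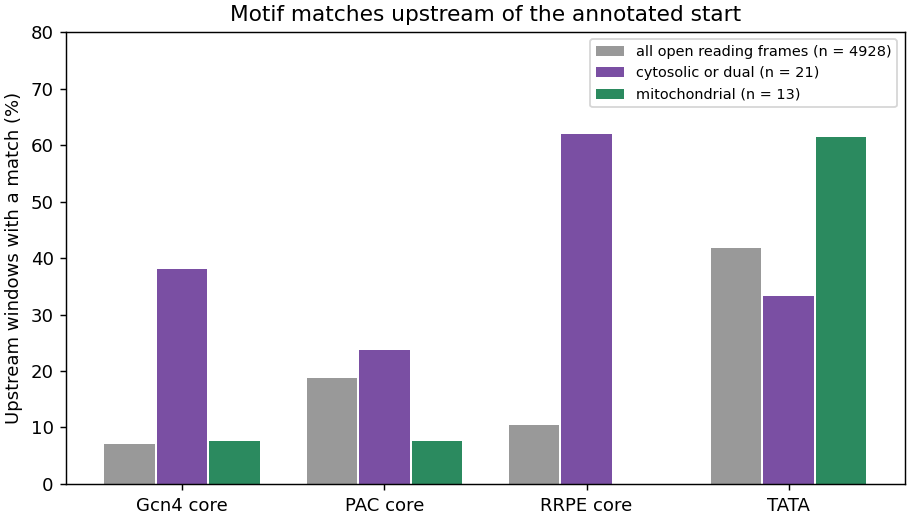
Percentage of 250-base upstream windows that hold at least 1 match of each motif, for all open reading frames (grey), cytosolic or dual synthetase genes (purple) and mitochondrial synthetase genes (green). The RRPE core stood in 61.9% of cytosolic, 0 mitochondrial and 10.5% of all windows.

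The RRPE core matches of the cytosolic genes are shown because they set these windows apart most, and they were chosen after the shares were seen. Each is given on its gene's strand, 5′ to 3′, from R64 with 10 bases either side, the motif in capitals. They lay 35 (WRS1) to 188 bases (FRS2) before the annotated start, and DED81 and YHR020W share a site, which leaves 12 distinct ones:
ARC1, chrVII:307327-307354: aagagataagAAAATTTTtcagtcatat
CRS1, chrXIV:182736-182763: atcgcaataaAAAATTTTcagcgcgggt
DED81, chrVIII:143725-143752: gcaaaagtgaAAAATTTTccatcgtgca
FRS1, chrXII:260873-260900: aaggaaatgaAAAATTTTcaatgtattt
FRS2, chrVI:95231-95258: acagaaaaaaAAAATTTTtctgtttttc
ILS1, chrII:84399-84426: atgatgacgaAAAATTTTtttttttttt
SES1, chrIV:489351-489378: ggtgcaaaaaAAAATTTTtttgtcattt
THS1, chrIX:212337-212364: atcttgctaaAAAATTTTtttcgaggaa
TYS1, chrVII:867603-867630: acaaagtagaAAAATTTTatgaaaatta
VAS1, chrVII:672063-672090: ccgcgctgaaAAAATTTTtttagaagag
WRS1, chrXV:137876-137903: aaaacgttgaAAAATTTTttttagtcat
YDR341C, chrIV:1153734-1153761: cgaagcgaaaAAAATTTTtagcttcaat

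Fold changes of the cytosolic genes with and without each motif are set side by side here. The 13 with the RRPE core had a median log2 fold change of 0.79, with 11 called higher, and the 8 without it a median of 0.75, with 5 called higher. WRS1 and TYS1, both uncalled, have the motif, while DPS1 does not. The 8 with the Gcn4 core had a median of 0.83, with 7 called higher, and the 13 without it 0.71, with 9 called higher. All 7 genes with both motifs were called higher, from 0.65 (YDR341C) to 1.30 (DED81), with a median of 0.87. Over the whole cytosolic set 16 of 21 genes (76.2%) were called higher and the median was 0.79. DED81 and YHR020W are among these 7 and share the same site of each motif, so their windows are not independent. These are descriptions with no test.

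Full upstream windows are shown for the called genes with the largest and smallest fold change of each set and for the leucine pair, in lower case with matches of the 4 motifs in capitals on either strand, each ending at the base before the annotated start. DPS1 has a match of the PAC core, FRS1 a match of TATAAA and of the RRPE core, and CDC60 a pair of TATAAA matches on opposite strands. ISM1 has a TATAAA match, and NAM2 has none of the 4 motifs:
DPS1, chrXII:111586-111835, minus strand: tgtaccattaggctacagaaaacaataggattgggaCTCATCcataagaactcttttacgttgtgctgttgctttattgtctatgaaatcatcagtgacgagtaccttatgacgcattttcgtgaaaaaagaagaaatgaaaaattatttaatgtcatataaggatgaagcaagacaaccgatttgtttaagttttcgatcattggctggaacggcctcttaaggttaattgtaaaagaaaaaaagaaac
FRS1, chrXII:260692-260941, plus strand: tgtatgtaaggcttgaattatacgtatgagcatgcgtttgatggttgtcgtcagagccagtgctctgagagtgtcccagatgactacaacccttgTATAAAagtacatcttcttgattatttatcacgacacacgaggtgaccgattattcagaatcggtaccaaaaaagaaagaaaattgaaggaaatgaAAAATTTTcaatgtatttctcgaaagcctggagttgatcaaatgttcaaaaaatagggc
CDC60, chrXVI:246677-246926, plus strand: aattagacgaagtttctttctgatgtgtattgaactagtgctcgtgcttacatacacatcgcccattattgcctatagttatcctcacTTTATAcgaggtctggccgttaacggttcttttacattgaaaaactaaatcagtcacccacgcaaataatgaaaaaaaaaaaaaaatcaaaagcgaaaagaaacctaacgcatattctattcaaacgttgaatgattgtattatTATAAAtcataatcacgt
NAM2, chrXII:884834-885083, minus strand: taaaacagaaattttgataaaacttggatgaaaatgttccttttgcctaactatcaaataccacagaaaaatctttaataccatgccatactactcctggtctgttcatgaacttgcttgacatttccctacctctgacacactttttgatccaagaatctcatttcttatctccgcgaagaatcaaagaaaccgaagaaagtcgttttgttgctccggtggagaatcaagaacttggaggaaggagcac
ISM1, chrXVI:479028-479277, minus strand: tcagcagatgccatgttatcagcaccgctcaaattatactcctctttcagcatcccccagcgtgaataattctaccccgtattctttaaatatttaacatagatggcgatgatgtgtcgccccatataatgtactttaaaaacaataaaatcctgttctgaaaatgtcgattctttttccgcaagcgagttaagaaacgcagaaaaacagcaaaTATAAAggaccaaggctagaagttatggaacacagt

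DED81 and YHR020W, the asparagine and proline genes, are transcribed away from each other out of the same intergenic region, with 322 bases between their annotated starts. The region was singled out after its values were seen. YHR020W (chromosome VIII, 143923 to 146146, plus strand) measured 726 and 503 CPM without rapamycin and 1152 and 950.2 CPM with it, so that both genes of the pair rose (0.77 ± 0.24 for YHR020W, adjusted p = 0.0209 by edgeR). The middle 300 bases of the region hold 1 RRPE core and, on the minus strand, 1 Gcn4 core, shown in capitals on the plus strand, which reads towards YHR020W:
DED81 and YHR020W, chrVIII:143612-143911: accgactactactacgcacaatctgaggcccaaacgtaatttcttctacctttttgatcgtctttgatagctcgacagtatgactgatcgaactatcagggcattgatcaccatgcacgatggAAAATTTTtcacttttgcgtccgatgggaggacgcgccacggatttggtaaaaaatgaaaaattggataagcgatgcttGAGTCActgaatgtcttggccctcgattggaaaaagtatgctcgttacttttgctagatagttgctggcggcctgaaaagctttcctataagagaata

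Other synthetase genes also have divergent neighbours. Among open reading frames whose starts lay within 500 bases upstream on the other strand, RAI1 beside GUS1 (-0.02 ± 0.17), RPA49 beside CRS1 (0.15 ± 0.16), ARP7 beside HTS1 (0.22 ± 0.16), AIR1 beside THS1 (-0.20 ± 0.22) and REX2 beside FRS1 (0.11 ± 0.20) were uncalled. The reverse held at GLN4, which was uncalled while RPS28A, a ribosomal protein gene that starts 255 bases away, rose by a log2 fold change of 2.06 ± 0.20 (adjusted p = 1.20e-05, edgeR). TFG1, beside the uncalled TYS1 (0.35), was called higher (0.47 ± 0.18). In the mitochondrial set, MLF3 beside MSK1 (-0.58 ± 0.16) and SYH1 beside MSD1 (-0.87 ± 0.20) were called lower while both synthetase genes were uncalled. Beside NAM2 and MSY1, which fell, SMC6 (0.31 ± 0.17) and MGR2 (-0.07 ± 0.27) were uncalled, as was CIA1 (0.22 ± 0.18) beside the uncalled MSW1. These neighbours are named for position, and the difference from each synthetase gene was not tested.

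Of the synthetase transcripts, 7 cytosolic and 6 mitochondrial ones overlap another annotated feature, in every case on the opposite strand. The longest overlaps are those of the cryptic unstable transcript CUT516 with 55.8% of MSW1 and of the stable unannotated transcript SUT162 with 23.0% of MSR1. CUT516 had 18 to 66 reads per library and was uncalled. SUT162 had 15 and 26 reads in the no rapa libraries against 39 and 112 in the with rapa libraries, and was called higher (3.05 ± 0.73, adjusted p = 0.00499, edgeR) while MSR1 was lower. Whether these moved together by any shared process was not tested. The overlaps with the other 11 covered at most 9.20% of the synthetase transcript.

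Of 3 measured genes of the mitochondrial amidotransferase, 2 were called lower, where 26.7% of all features were. Yeast mitochondria make glutaminyl-tRNA by amidation of glutamyl-tRNA, with the amidotransferase subunits Her2, Pet112 and Gtf1. PET112 (-1.38 ± 0.25, adjusted p = 0.000766) and HER2 (-0.78 ± 0.26, 0.0291) were lower by the edgeR test, and GTF1 (0.58 ± 0.24, 0.0677) was uncalled. PET112 averaged 40.2 ± 2.53 CPM (SD, n = 2) without rapamycin and 15.4 ± 3.04 CPM with it. AIM10, a gene related to prolyl-tRNA synthetases, stood at -0.52 ± 0.22, and GRS2, a gene related to the synthetases, at 0.41 ± 0.20, both uncalled. Of 63 mitochondrial ribosomal protein genes, 2 (3.2%) were called higher (RSM25 and RSM27) and 6 (9.5%) lower, with a median of -0.05. Both shares lay below those of all features, 19.3% higher and 26.7% lower.

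Of 54 amino acid synthesis genes, 27 (50%) were higher and 3 (5.6%) lower, with a median log2 fold change of 0.51. Over all features 19.3% were called higher and 26.7% lower. Those with the smallest adjusted p were HOM2, for aspartate semialdehyde dehydrogenase (1.54 ± 0.20), ILV6, a subunit of acetolactate synthase (1.57 ± 0.23), ARG4, for argininosuccinate lyase (1.27 ± 0.18), and PRO3, for the last step of proline synthesis (1.20 ± 0.18). Lower were the aspartate kinase gene HOM3 (-1.01 ± 0.21), the homocitrate synthase gene LYS20 (-0.87 ± 0.19) and the histidine gene HIS2 (-0.82 ± 0.29). Of 135 cytosolic ribosomal protein genes, 119 were higher and 0 lower, with a median of 1.39 beside the 0.79 of the cytosolic synthetases; that list was chosen after its values were seen. Duplicated ribosomal protein genes can exchange reads between copies.

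Genes for tRNA delivery and quality and for sensing uncharged tRNA were measured in the same fit. In it 19.3% of all features were called higher and 26.7% lower. In each of the lists below 28.6% were called higher, which with 7 genes a list is near the share of all features. In the list of 7 genes for tRNA delivery and quality, 2 were higher and 0 lower. The 2 were the elongation factor subunit gene CAM1 (1.07 ± 0.24) and the peptidyl-tRNA hydrolase gene PTH2 (1.06 ± 0.21). Elongation factor 1A itself, encoded by the near-identical TEF1 and TEF2, stood at 0.72 ± 0.30 and 0.43 ± 0.34, both uncalled. How reads were split between these copies was not tested. In the list of 7 genes for the response to uncharged tRNA, GCN4, which encodes the activator of amino acid synthesis genes, was lower (-0.83 ± 0.21, adjusted p = 0.00621, edgeR). GCN4 averaged 782 ± 116 CPM (SD, n = 2) without rapamycin and 441 ± 0.225 CPM with it, while GCD6 (0.56 ± 0.18) and YIH1 (0.61 ± 0.22) were higher.

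The tRNA maturation lists are read against the 46.0% of all features called in either direction. Of 46 tRNA modification genes, 4 were higher and 2 lower, with a median of 0.12. The higher ones were TAD2 (1.45 ± 0.29), a subunit of the wobble adenosine deaminase, GCD10 (0.65 ± 0.16), TRM9 (0.91 ± 0.23) and TRM11 (0.53 ± 0.19), all 3 of which serve tRNA methylation. Lower were SUA5 (-0.66 ± 0.20), which acts in threonylcarbamoylation, and the isopentenyl transferase gene MOD5 (-0.57 ± 0.18). Of 19 tRNA processing and export genes, 1 was higher and 3 lower, with a median of -0.09. SEN2 of the splicing endonuclease rose (1.19 ± 0.25), while its partner SEN54 (-0.55 ± 0.21), the RNase P gene POP1 (-1.01 ± 0.18) and the 3′ processing gene TRZ1 (-0.79 ± 0.17) fell. Differences between these lists and the synthetases were not tested.

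**Figure D5:**
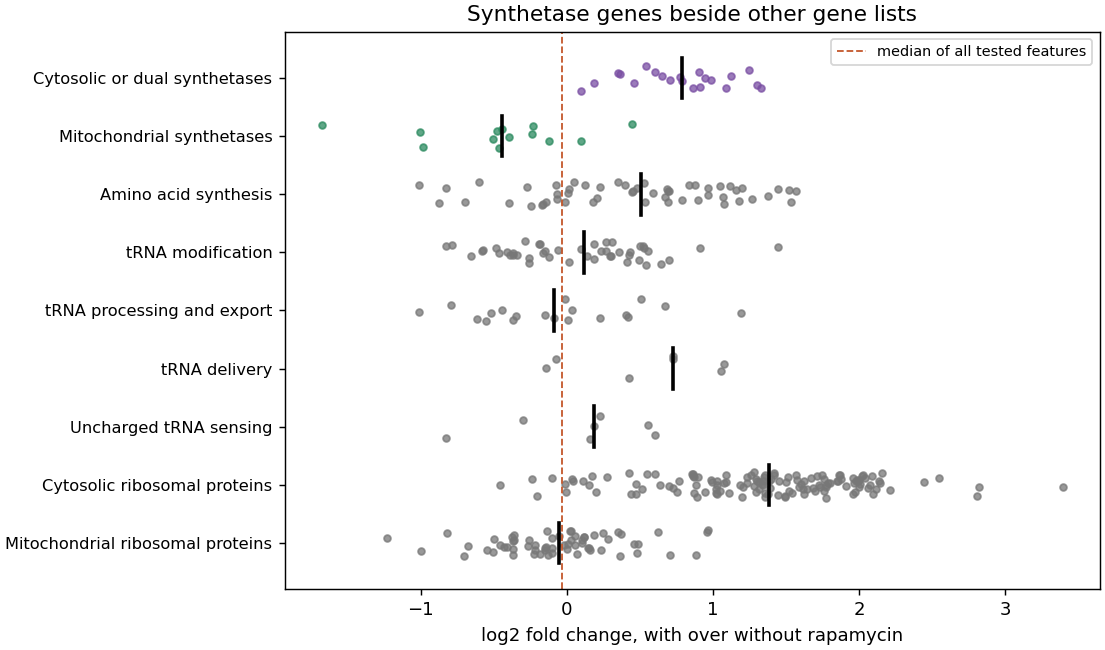
Log2 fold change (with over without rapamycin) of each tested gene in the synthetase sets and in 7 other lists, 1 point a gene, with the list's median as a black bar and the median of all tested features (-0.03) as a dashed line. The cytosolic synthetases (median 0.79) and the mitochondrial ones (-0.44) lie on opposite sides of that line. The median of tested open reading frames, which is not drawn, was -0.14.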

How the data were processed

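The authors deposited raw read counts per annotated transcript and the transcript annotation. Of tools, the submitters' processing notes list HTSeq, SAMtools and STAR 2.3.0, and of builds R64 and sacCer3, with no role given. The strand setting of the counting was not given in the sources used here: ambiguous reads were at most 0.0930%, whereas 4.52% to 5.95% of feature counts would lie under an opposite-strand feature if spread evenly. Multiply aligned reads are given as 0 in each library. Spike-ins were added before lysis, per the labels, and were not used here, so levels are relative within a library. CPM values were computed from the deposited counts. Rows that name no transcript (33.05% to 50.45% of reads outside features) were left out.

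Counts were tested in edgeR 4.0.16 (limma 3.58.1, R 4.3.3) with TMM factors, the default low-count filter, the quasi-likelihood F-test and Benjamini-Hochberg adjustment over 5707 features, two-sided. SE is the absolute log2 fold change over the square root of F. The common biological coefficient of variation was 19.8%. The fit was also run on simulated data in which few features changed, as many up as down. Here 46.0% of features were called, so that run does not test the scaling under such a change. Replicates differed by a chi-square of 82.3 and 66.6 per degree of freedom, so none was a copy. Symbols and sequence came from RefSeq R64, in which all 4842 matched genes lay inside the deposited transcripts.

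The members and lists were chosen with earlier results of these data known. The ribosomal protein lists were picked by symbol after values were seen. All members could be named, up to 4 called genes per direction of other lists (every gene of lists of 11 or fewer), and windows for the extreme called members and the widest pair. DESeq2 1.42.0, other scaling, no filter, open reading frames alone, non-overlapping features, a replicate block and leaving out each library were alternatives.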

Additional observations from a re-analysis of the deposited data

Results flagged for a closer look

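Reads outside every annotated feature, which no comparison uses, made up 50.45% of reads in with rapa replicate 1 and 49.95% in with rapa replicate 2, above the 33.72% and 33.05% of the no rapa libraries.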

How the results depend on the processing

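Over all 34 genes, 20 of 21 cytosolic and 11 of 13 mitochondrial estimates kept their direction in every setting run; MES1, MSD1 and MSW1 did not. With 1 library left out, MES1 ranged from -0.10 to 0.30, MSD1 from -0.31 to 0.50 and MSW1 from -0.36 to 0.16, and MSW1 was 0.0036 with open reading frames alone. Leaving out 1 library gave 3 to 18 cytosolic genes called higher, 3 to 7 mitochondrial genes called lower and 0 to 2 called higher, and 1588 to 3312 features called in all, 531 to 1535 higher and 1056 to 1777 lower. Such fits take their spread from the remaining pair, the lone library being assumed to vary like it. With open reading frames alone 1 mitochondrial gene was called higher. With features that overlap no other, which left 14 cytosolic and 7 mitochondrial genes, 12 cytosolic genes were higher and 1 mitochondrial gene lower, among 1330 features called (589 higher, 741 lower); fewer features were tested. With a replicate block, 17 cytosolic genes were called higher and 6 mitochondrial genes lower, among 2970 features. The labels do not say what the replicate numbers share; same-numbered libraries deviated together with r = 0.21 over 4622 features; with only 2 numbers the pairing could not be settled. DESeq2 called 17 cytosolic genes higher and 3 mitochondrial genes lower. With 2 libraries a group, the SE of 0.18 to 0.29 on the log2 scale for synthetase genes limits what could be called.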
